A study of Mus musculus with 2 samples.

Results

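The adrenomedullin and calcitonin gene-related peptide (CGRP) system was described here through 7 genes, chosen by symbol for their roles: the peptide genes Adm and Calca, the receptor gene Calcrl, the co-receptor genes Ramp1, Ramp2 and Ramp3, and the decoy receptor gene Ackr3. All 7 were found among the 24319 rows of each expression table. Each table held the expression of 1 RNA sequencing library, in FPKM, that is, mapped fragments scaled to transcript length and to library size. The control library carries the wild type label and the other, the knockout-labelled library, the label Dot1l knockout, which the labels describe as a deletion in endothelium. Dot1l encodes the methyltransferase of lysine 79 on histone H3. Both libraries came from lymphatic endothelial cells (LECs) of the skin of C57BL/6 mouse embryos at E15.5 (embryonic day), and RNA of 2 to 3 biological replicates was pooled for each. The sources used here do not give the Cre driver, the deleted exons or the purification of the cells, and the labels also carry a culture protocol for dermal LECs. With 1 library per genotype there is no test, no error between replicates and no replicate check for any difference reported here.

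Adrenomedullin and CGRP are secreted, amidated peptides that act through the same class B G protein-coupled receptor, calcitonin receptor-like receptor (Calcrl). The receptor needs a single-pass partner, a receptor activity-modifying protein (RAMP), to reach the cell surface and to choose its ligand: with RAMP1 it is a CGRP receptor, and with RAMP2 or RAMP3 an adrenomedullin receptor. In mice, loss of Adm, Calcrl or Ramp2 leads to embryonic oedema with poorly formed lymphatic vessels, and loss of Ackr3, which takes up CXCL12 and has been described as a decoy for adrenomedullin, leads to enlarged ones.

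Markers of several cell types differed between the 2 libraries. The library labelled knockout had 12 of 12 mast cell markers and 18 of 18 macrophage markers 2-fold or more higher, and 19 of 22 pan-endothelial and 8 of 9 lymphatic markers 2-fold or more lower. Lymphatic markers were present in both libraries, among them Prox1 (59.3 and 13.1 FPKM), while Ccl21a was at 0.538 and listed at 0. Lyve1 (526 and 552) was the 1 lymphatic marker of 9 within 2-fold. The part of other cells in its level was not tested. Dot1l was 5.86 FPKM in control and 10.4 in the knockout-labelled library, and since reads from outside a deleted part are still counted, this value checks nothing about the label. Among 13296 genes at 1 FPKM or more in at least 1 library, 16.78% were 2-fold or more higher and 15.49% 2-fold or more lower in the knockout-labelled library. In pooled RNA of this kind, fewer cells of a type and less RNA per cell cannot be told apart.

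The co-receptor genes differed in opposite directions between the libraries, the peptide gene Calca was high in the knockout-labelled library alone, and the shared receptor gene Calcrl lay within 2-fold. Of the 7 genes, 3 were 2-fold or more higher in the knockout-labelled library (Calca, Ramp1 and Ramp3), 2 2-fold or more lower (Ramp2 and Ackr3) and 2 within 2-fold (Adm and Calcrl), beside the 16.78% and 15.49% of all genes in each direction. Differences throughout are log2(FPKM + 1) in the knockout-labelled library minus control, and 2-fold means a difference of 1 on that scale. The median over the 7 genes was 0.63, with a range from -3.84 to 7.34, against 0.0030 over all 13296 genes. The genes were chosen with earlier results of these libraries known, so these counts describe them and do not set them apart from other genes.

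**Figure D1:**
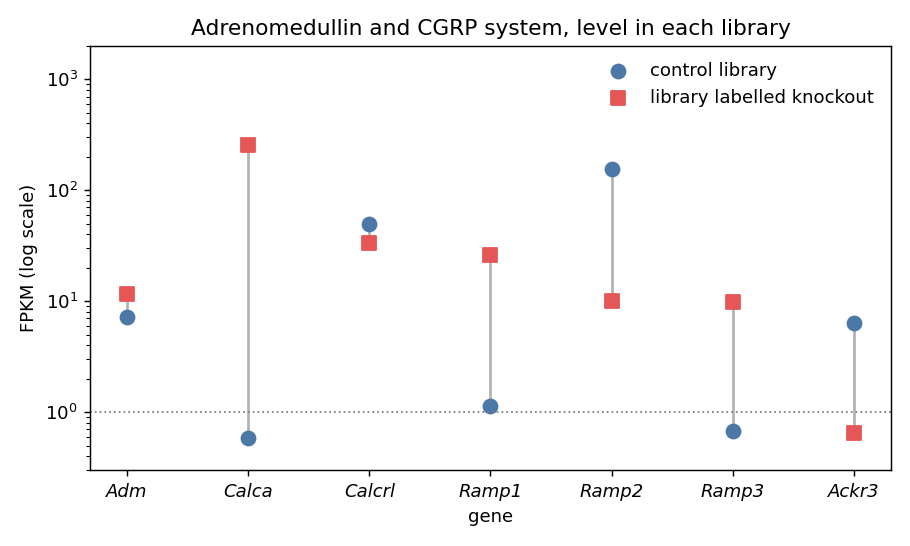
Level of each gene in the control library (circles) and in the knockout-labelled library (squares), in FPKM on a log axis, with 1 library per genotype and a dotted line at 1 FPKM. Calca (0.589 and 256 FPKM), Ramp1 and Ramp3 lie higher in the knockout-labelled library, Ramp2 (156 and 9.97) and Ackr3 lie lower, and the points of Adm and Calcrl lie close together.

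Of the peptide genes, Adm differed little. Adm encodes the precursor of adrenomedullin and of its amino-terminal companion peptide. It was 7.21 FPKM in the control library and 11.7 in the knockout-labelled library, 1.63-fold higher, with a log2 difference of 0.63. By that difference Adm was rank 3306 from the highest of 13296 genes. About 88 and 127 fragments lay behind the values at the estimated depths, taking the annotated coding transcript of 1390 nt. Adm is known as a gene that hypoxia induces, so 14 genes of the hypoxia response were set beside it. Of 13 at 1 FPKM or more, 5 were 2-fold or more higher, no gene was lower by that much and 8 lay within 2-fold. Their median was 0.84, and the shares over all genes were 16.78% higher and 15.49% lower. Ldha, which makes lactate, was 171 and 977 FPKM, and the glycolytic kinase gene Pgk1 was 32.2 and 152. The mitophagy receptor gene Bnip3 was 8.94 and 32.8, and the pyruvate dehydrogenase kinase gene Pdk1 8.09 and 27.6. The genes of the factors that switch this response on all lay within 2-fold: Hif1a was 91.5 and 47.0 FPKM, Epas1 12.7 and 6.67, and their partner Arnt 18.2 and 25.8. Vegfa, the endothelial growth factor, was 22.0 and 17.4. Also within 2-fold were Slc2a1 (24.6 and 44.9), Egln3 (16.0 and 30.6), Egln1 (16.6 and 21.0) and Ndrg1 (64.5 and 78.3). The difference of Adm was thus close to the median of the list and below that of Ldha and Pgk1. That median includes the factor genes Hif1a, Epas1 and Arnt as well as the genes they switch on.

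Calca had the largest difference of the 7 genes. Calca encodes calcitonin or CGRP alpha, depending on how its transcript is spliced, and the tables give 1 value per gene, so the peptide cannot be told. It was 0.589 FPKM in the control library and 256 in the knockout-labelled library. The ratio of these values was 435 and the log2 difference 7.34, rank 24 from the highest of 13296 genes. The control level rests on about 5 fragments at most, taking the longest coding transcript of 994 nt, so the size of the ratio is imprecise, while about 1855 fragments lay behind the other value. The level of Calca was above 6.42% of the 13296 genes in the control library and above 98.0% in the knockout-labelled library. Its neighbour and near relative Calcb, which encodes CGRP beta, was listed at 0 in both libraries, and the sources used here do not say how reads shared by the pair were assigned. The ratio of Calca to Adm went from 0.0817 to 21.9.

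Sources of CGRP in the body include sensory neurons and endocrine cells, whose markers were set beside Calca. In the sensory neuron list, 1 of 5 genes at 1 FPKM or more was 2-fold or more higher and 3 2-fold or more lower. Over all genes the shares were 16.78% higher and 15.49% lower. The summed level of the 11 genes of the list was 22.7 FPKM in control and 14.6 in the knockout-labelled library. The higher gene was Tac1, which encodes the neuropeptide substance P, at 0 and 8.48 FPKM. Prph, which encodes the neuronal filament protein peripherin, was 0.817 and 2.32, within 2-fold on the log2 scale used. Tubb3 was 1.92 and 0.141, Snap25 was 1.21 and 0.0560, and Scn10a, a sodium channel gene of pain-sensing neurons, was listed at 0 in both. Neuroendocrine markers summed to 6.71 and 1.13 FPKM, with Chga, Chgb and Scg2 listed at 0 in the knockout-labelled library. Markers of immune cells were higher in the library that held Calca. Mast cell markers summed to 112 FPKM in control and 13078 in the knockout-labelled library, with the protease genes Cma1 at 46.2 and 5706 and Cpa3 at 35.8 and 4211. Macrophage markers summed to 67.6 and 4825, and the 6 neutrophil markers listed summed to 6.39 and 345, with 4 of 5 2-fold or more higher. The log2 difference of Calca exceeded that of 11 of 12 mast cell markers and 14 of 18 macrophage markers. The part of any of these cells, neurons and endocrine cells included, in the level of Calca was not tested.

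The promoter windows of the genes that differed at least 2-fold are shown because these genes went in opposite directions between the libraries. They run from 250 bases before to 50 after the annotated start, 5′ to 3′ on the strand of the gene, from RefSeq's GRCm38.p6 table, in which 6 of the 7 genes matched and Ramp2 has no entry. Capitals mark matches, on either strand, to 6 short motifs, none of which contains another. Letters TATAAA are the TATA box. The cyclic AMP response element is TGACGTCA. Hypoxia-inducible factors bind the core ACGTG. An ETS site was taken as CCGGAAG. For GATA factors the letters were AGATAA. The GC box is GGGCGG. The windows are Calca at chr7:114636308-114636607 on the minus strand, Ramp1 at chr1:91179572-91179871 on the plus strand, Ramp3 at chr11:6658283-6658582 on the plus strand, and Ackr3 at chr1:90203730-90204029 on the plus strand.
Calca: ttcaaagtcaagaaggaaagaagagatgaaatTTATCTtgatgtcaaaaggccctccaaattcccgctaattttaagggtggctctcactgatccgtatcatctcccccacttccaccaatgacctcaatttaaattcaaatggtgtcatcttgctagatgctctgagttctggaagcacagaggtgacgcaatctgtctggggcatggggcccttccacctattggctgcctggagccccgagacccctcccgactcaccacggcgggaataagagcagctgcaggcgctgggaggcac
Ramp1: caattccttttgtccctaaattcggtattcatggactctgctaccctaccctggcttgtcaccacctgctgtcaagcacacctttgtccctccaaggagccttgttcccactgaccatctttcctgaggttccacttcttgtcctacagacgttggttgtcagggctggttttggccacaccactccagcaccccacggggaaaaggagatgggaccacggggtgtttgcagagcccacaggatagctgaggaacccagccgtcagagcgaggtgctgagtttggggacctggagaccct
Ramp3: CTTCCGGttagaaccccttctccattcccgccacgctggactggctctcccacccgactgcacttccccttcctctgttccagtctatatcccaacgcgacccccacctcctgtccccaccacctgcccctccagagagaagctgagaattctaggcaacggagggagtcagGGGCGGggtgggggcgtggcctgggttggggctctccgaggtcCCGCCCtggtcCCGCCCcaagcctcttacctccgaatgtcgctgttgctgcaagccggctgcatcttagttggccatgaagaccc
Ackr3: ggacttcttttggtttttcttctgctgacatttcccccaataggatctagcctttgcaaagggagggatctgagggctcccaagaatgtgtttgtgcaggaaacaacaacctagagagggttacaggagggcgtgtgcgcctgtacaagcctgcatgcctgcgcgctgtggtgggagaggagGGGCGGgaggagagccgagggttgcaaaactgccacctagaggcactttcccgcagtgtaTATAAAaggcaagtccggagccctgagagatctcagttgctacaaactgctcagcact

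The 4 windows had little in common. The Calca window held 1 GATA match, a motif found in 11.2% of 32851 promoter windows of the same length, and none of the others. The Ramp1 window held no match to any of the 6 motifs. The Ramp3 window held 3 GC boxes and 1 ETS match, with GC boxes in 35.7% and ETS matches in 8.86% of all windows. The Ackr3 window held 1 GC box and 1 match to the TATA box letters, the latter present in 13.6% of all windows. The first base of that TATAAA match lay at -8 relative to the annotated start. Ramp3 was the richest in G and C, at 63.7% with 15 CpG pairs, against 51.3% and 8 for Calca, 55.7% and 6 for Ramp1, and 54.0% and 8 for Ackr3, beside a median of 52.7% and 7 over all windows. Among the windows not printed, those of Adm and Calcrl held 1 GC box each. None of the 6 windows held the cyclic AMP response element (1.79% of all windows) or the hypoxia core (19.6%). A match in such a window is a run of letters and no evidence of binding, and a missing match says nothing of the factor.

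The receptor gene Calcrl lay within 2-fold of its control level. It was 49.3 FPKM in the control library and 33.5 in the knockout-labelled library, a 1.47-fold lower value and a log2 difference of -0.54, which became 1.42 when the libraries were scaled to the same pan-endothelial median. About 2367 and 1430 fragments lay behind these values, taking the longest coding transcript of 4882 nt. Calcrl is expressed in vascular endothelium. Its difference was above those of 21 of 22 pan-endothelial markers, whose median was -1.92, and of 8 of 9 lymphatic markers, whose median was -2.22. The part of other cells in the level of Calcrl was not tested. Relative to the junction marker gene Pecam1, Calcrl was at a ratio of 0.227 in the control library and 0.681 in the other. This ratio shows that the pair did not change alike, and not which of them changed. The calcitonin receptor gene Calcr, the other receptor that pairs with RAMPs to bind these peptides, was 0.0295 and 0.0330 FPKM. Crcp, which encodes a small intracellular protein that aids coupling of the receptor, was 15.8 and 18.6. Adm2 and Iapp, which encode further peptides of the family, were listed at 0 in both libraries. RAMPs also bind other class B receptors, and of 13 genes for these only Pth1r, the parathyroid hormone receptor, reached 1 FPKM, at 12.8 in control and 4.17 in the knockout-labelled library. Of the RAMP partners looked for, Calcrl therefore had the highest level in both libraries, and Pth1r was the only other at 1 FPKM or more.

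The RAMP genes differed in opposite directions. Ramp2, the adrenomedullin co-receptor that endothelium uses, was 156 FPKM in the control library and 9.97 in the knockout-labelled library. That is a 15.7-fold lower value and a log2 difference of -3.84, rank 14 from the lowest of 13296 genes. Ramp2 thus went from a level above 97.1% of genes to one above 50.4%. The difference lay below those of all 22 pan-endothelial markers and all 9 lymphatic markers measured, and 1.92 below the pan-endothelial median. Ramp2 relative to Pecam1 was 0.718 in control and 0.203 in the knockout-labelled library. Fibroblast markers (10 of 11 2-fold or more lower, median -1.88) and pericyte and smooth muscle markers (11 of 11, median -2.57) were lower in the same library, and their part in the level of Ramp2 was not tested.

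Ramp1 and Ramp3 were low in the control library. Ramp1, the CGRP co-receptor, was 1.15 FPKM in control and 26.3 FPKM in the knockout-labelled library, which is 22.9-fold higher, with a log2 difference of 3.67. Ramp3, which also makes an adrenomedullin receptor and binds proteins that steer receptor recycling, was 0.673 and 9.87 FPKM, 14.7-fold higher with a difference of 2.70. They were rank 328 and rank 586 from the highest of 13296 genes. At most about 25 fragments of Ramp1 and about 7 of Ramp3 lay behind the control values, so these folds are imprecise, against about 509 and 93 in the other library. Both differences were above those of all 22 pan-endothelial markers. They were below the macrophage median of 5.88 and the mast cell median of 4.76, although Ramp1 exceeded 3 of 18 macrophage and 4 of 12 mast cell markers and Ramp3 exceeded 1 and 2. The part of these cells in the levels of Ramp1 and Ramp3 was not tested. In the RefSeq annotation the span of the pseudogene Gm11978 overlaps that of Ramp3, and Gm11978 was listed at 0 in both libraries.

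Within a library the make-up of the RAMPs does not depend on how the libraries are scaled. In the control library Ramp2 made 98.8% of the summed RAMP FPKM of 158, Ramp1 0.727% and Ramp3 0.426%. In the knockout-labelled library the sum was 46.1 FPKM, of which Ramp1 made 57.0%, Ramp2 21.6% and Ramp3 21.4%. The share of Ramp2 was therefore lower (a difference of -77.2 percentage points), and Ramp1 was the RAMP gene with the highest level. Per unit of Calcrl, Ramp2 went from a ratio of 3.17 to 0.297, Ramp1 from 0.0233 to 0.784 and Ramp3 from 0.0136 to 0.294. All RAMPs together went from 3.20 to 1.38 per unit of Calcrl. The RAMP transcripts thus outnumbered Calcrl transcripts in both libraries, per length, but no single RAMP did so in the knockout-labelled library. These are RNA levels summed over all cells of a pool, so whether a given cell holds both a RAMP and Calcrl was not measured.

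**Figure D2:**
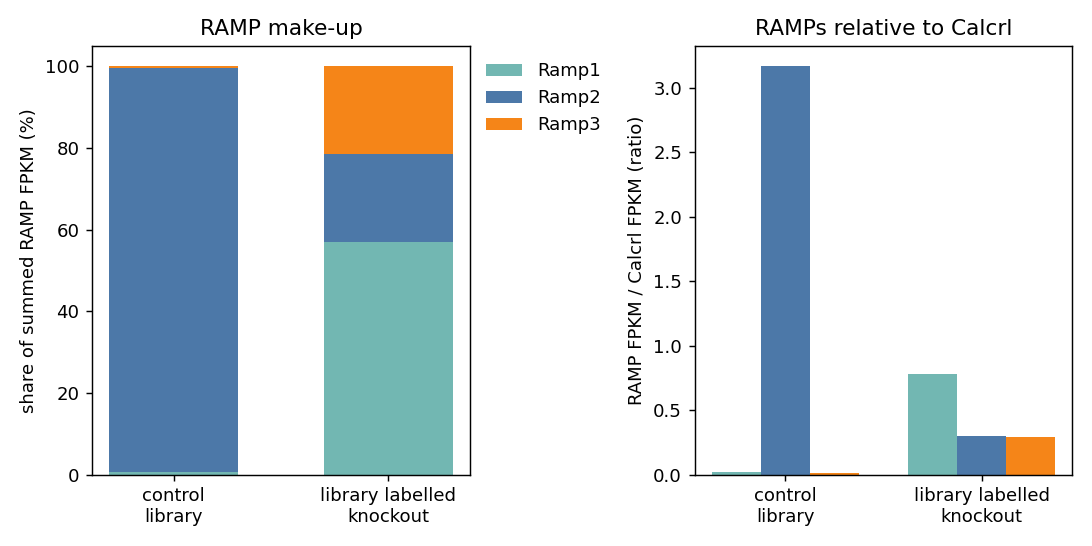
Left, share of each RAMP gene in the summed RAMP FPKM of each library, in percent. Right, FPKM of each RAMP gene divided by the FPKM of Calcrl in the same library. Ramp2 makes 98.8% of the sum in the control library and 21.6% in the knockout-labelled library, where Ramp1 makes 57.0%, and bars stand for 1 library each.

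The decoy receptor gene Ackr3 was lower. It was 6.40 FPKM in the control library and 0.645 in the knockout-labelled library, a 9.92-fold lower value and a log2 difference of -2.17, rank 335 from the lowest. At most about 188 and 17 fragments lay behind the values, taking the longest coding transcript of 3065 nt. On the log2(FPKM + 1) scale its difference was above 7 and below 15 of those of the 22 pan-endothelial markers. That place depends on the pseudocount. By the ratio of deposited FPKM, Ackr3 was lower by more than each of the 22, of which Cd34 came nearest at 9.53-fold. With about 17 fragments behind the lower value, the fold of Ackr3 is imprecise, and its order against Cd34 is not resolved. With the pan-endothelial median at 0, the difference of Ackr3 was -1.05. Ackr3 takes up chemokines as well as peptides, and 10 genes of that side were measured. Of 6 at 1 FPKM or more, 1 was 2-fold or more higher, 2 2-fold or more lower and 3 within 2-fold. Their median was -0.46, and the shares over all genes were 16.78% higher and 15.49% lower. The chemokine gene Cxcl12, whose product ACKR3 scavenges, was 19.1 and 3.91 FPKM, and Penk, the precursor of opioid peptides that ACKR3 also binds, was 78.6 and 19.6. Cxcr4, the signalling receptor for CXCL12, was 10.4 and 14.0 FPKM, and Mif was 129 and 134. The higher gene was the chemokine receptor gene Cxcr3, listed at 0 in control and at 2.96 in the other library. Ackr3 and the ligand Cxcl12 were thus both lower, while Cxcr4 lay within 2-fold.

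Enzymes that make and clear the peptides differed in both directions. Of 11 genes at 1 FPKM or more, 2 were 2-fold or more higher and 6 2-fold or more lower, with a median of -1.50. The shares over all genes were 16.78% higher and 15.49% lower. Pam, the enzyme that amidates the end of adrenomedullin and CGRP and so makes them active, was 41.5 FPKM in control and 10.3 in the knockout-labelled library. The carboxypeptidase gene Cpe, which trims peptides after cleavage, was 43.2 and 5.67, and the convertase gene Pcsk6 was 42.7 and 11.5. The convertase gene Furin was instead 13.0-fold higher, at 6.26 and 81.4. Pcsk1 and Pcsk2, the convertases of neuroendocrine granules, were below 0.1 FPKM in both libraries. On the side of clearance, the protease gene Ece1 was 83.3 and 27.1, Mme (neprilysin) was 9.74 and 2.81, and Ide was 18.8 and 22.2.

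Genes of the cyclic AMP pathway, through which these receptors signal, were divided. Of 28 genes at 1 FPKM or more, 7 were 2-fold or more higher, 6 2-fold or more lower and 15 within 2-fold. Their median was 0.039. Over all genes 16.78% were higher and 15.49% lower by that much, so counts among 28 genes do not set the pathway apart. Gnas, whose locus encodes the stimulatory G protein alpha subunit that couples CALCRL to adenylyl cyclase, was 2033 FPKM in control and 313 in the knockout-labelled library. The adenylyl cyclase gene Adcy4 was 11.7 and 3.28, whereas Adcy7 was 2.31 and 52.1 and thus 22.6-fold higher. Adcy6 was 12.7 and 6.02, within 2-fold on the log2 scale used. Genes for subunits of the cyclic AMP-dependent kinase went both ways. Prkacb was 30.8 and 65.4 and Prkar1a 65.5 and 142, each 2-fold or more higher, while Prkar1b was 3.90 and 0.798, which is 2-fold or more lower. Prkaca (22.9 and 19.1), Prkar2a (15.0 and 13.7) and Prkar2b (27.2 and 32.7) lay within 2-fold. Rap1b, a small GTPase through which cyclic AMP tightens endothelial junctions, was 98.4 and 263 FPKM, and its exchange factor gene Rapgef3 was 6.19 and 1.66. Crem, a transcription factor gene that cyclic AMP induces, was 9.65 and 70.3, and Creb1 was 25.7 and 26.7. The phosphodiesterase gene Pde4d was 4.87 and 13.3, and Pde4b was 32.6 and 20.5.

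Genes that switch off and recycle the receptor were higher or within 2-fold. Of 9 genes, 4 were 2-fold or more higher and no gene was lower by that much, with a median of 0.76. Over all genes the shares were 16.78% higher and 15.49% lower. The beta-arrestin gene Arrb2 was 5.75 FPKM in control and 65.5 in the knockout-labelled library, while Arrb1 was 23.7 and 30.6. The receptor kinase gene Adrbk1 was 8.06 and 50.2. Both NHERF1 and NSF are known to bind RAMP3 and direct internalized receptors: Slc9a3r1, which encodes the scaffold NHERF1, was 4.40 and 29.8, and Nsf, a fusion ATPase gene, was 13.3 and 23.2. The kinase gene Grk5 was 14.7 and 8.99, and Grk6 was 21.6 and 16.2. Slc9a3r1 and Ramp3 were both higher in the knockout-labelled library, while Nsf lay within 2-fold. Whether the same cells hold Slc9a3r1 and Ramp3 was not measured.

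Adrenomedullin is known to tighten lymphatic junctions, and 9 junction genes were examined. Of 8 at 1 FPKM or more, 4 were 2-fold or more lower, no gene was higher by that much and 4 lay within 2-fold. Their median was -1.02, and the shares over all genes were 15.49% lower and 16.78% higher. Cdh5, the endothelial cadherin, was 227 FPKM in control and 34.4 in the knockout-labelled library, and Tjp1, which encodes the scaffold ZO-1, was 88.4 and 22.7. The claudin gene Cldn5 was 146 and 38.5. Gja1, the connexin 43 gene, was 190 and 103, and Ctnnb1 was 408 and 267, both within 2-fold. Cdh5 and Cldn5 are also pan-endothelial markers, so this list is not independent of them.

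**Figure D3:**
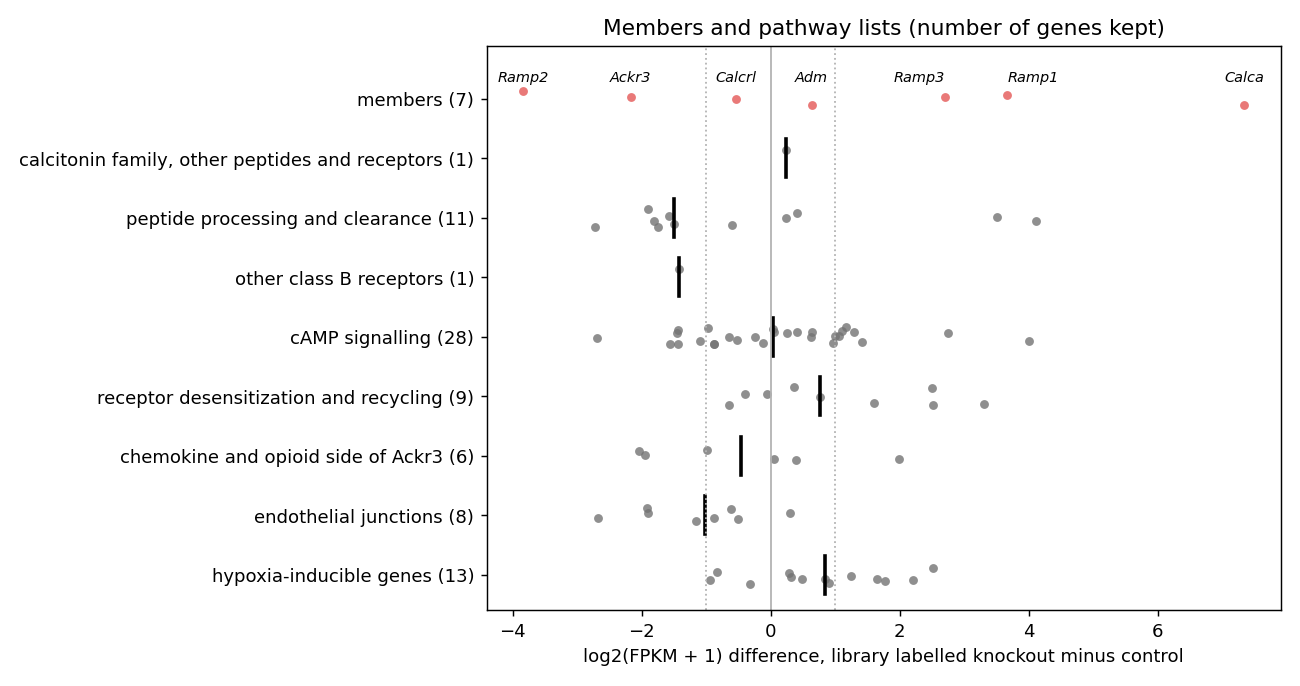
Log2(FPKM + 1) difference, library labelled knockout minus control, of the 7 genes (top row, named) and of each gene at 1 FPKM or more in 8 pathway lists, with a black bar at the list median, a solid line at 0 and dotted lines at 2-fold. The medians run from -1.50 for peptide processing and clearance to 0.84 for hypoxia-inducible genes, and Calca lies to the right of every gene in these lists.

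Other cell types of skin were also followed beside the 7 genes. Keratinocyte markers had 5 of 8 genes 2-fold or more lower (median -1.16), and the summed level was 185 FPKM in control and 83.7 in the knockout-labelled library. Summed pan-endothelial markers were 1991 and 518 FPKM, lymphatic markers 1731 and 795, fibroblast markers 3666 and 944, and pericyte and smooth muscle markers 281 and 43.9. Lyve1 alone made 526 and 552 FPKM of the lymphatic sums. Ramp2 and Ackr3 were lower in the same library as these lists, whereas Calca, Ramp1 and Ramp3 were higher in the same library as the macrophage, mast cell and neutrophil lists (medians 5.88, 4.76 and 4.39). The sensory neuron and neuroendocrine medians were -1.07 and -0.91. Whether these cells account for any of the differences was not tested.

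**Figure D4:**
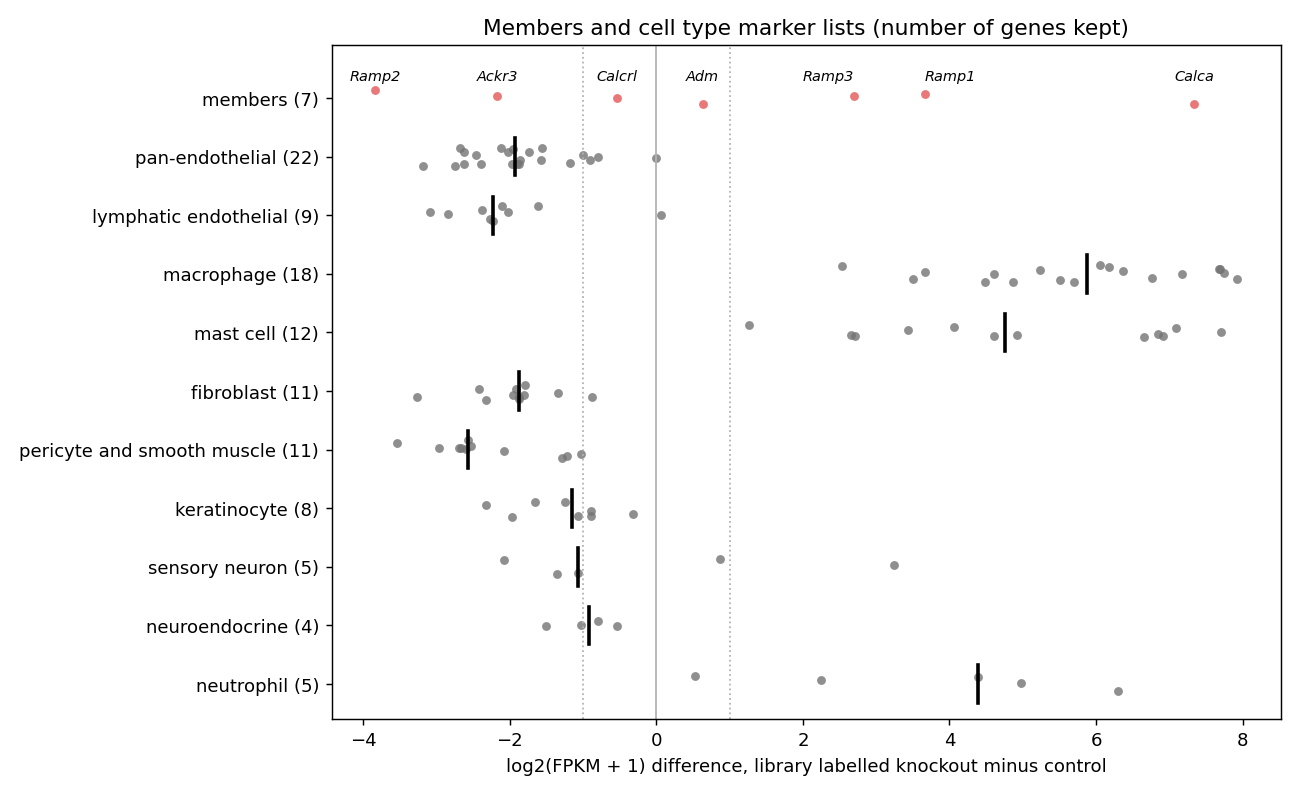
Log2(FPKM + 1) difference, library labelled knockout minus control, of the 7 genes (top row, named) and of each marker at 1 FPKM or more in 10 cell type lists, with a black bar at the list median, a solid line at 0 and dotted lines at 2-fold. Ramp2 lies left of all pan-endothelial markers, Calcrl lies right of 21 of 22, and Calca lies among the highest macrophage and mast cell markers.

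The genes with levels most like those of each member were found by distance over the 2 libraries on the log2(FPKM + 1) scale among 12515 other named genes. With 2 libraries, likeness means only a similar level in each. For Calca the nearest were C1qb (0.344 and 327 FPKM, distance 0.42), a complement gene of macrophages, Cyp11a1 (0.494 and 180, distance 0.52), an enzyme of steroid synthesis, and Coro1a (1.07 and 196, distance 0.54), an actin regulator of leukocytes. For Ramp2 they were Plagl1 (125 and 11.5, distance 0.37), an imprinted zinc finger gene, Ptn (114 and 8.43, distance 0.50), which encodes pleiotrophin, and the histone gene Hist1h2ae (126 and 14.1, distance 0.56), whose near-identical copies make its reads uncertain. For Ramp1 they were Hapln1, Tspan32 and Pik3cd, for Ramp3 Lpcat2, Tmod1 and Vill, and for Ackr3 Arxes1, Comp and C1ql3, all within 0.13. For Adm they were Ttc32, Lrrc47 and Ell, and for Calcrl Denr, Dock1 and Dnajc2, all within 0.04. Calca and Ramp2 had the more distant nearest genes, at distances of 0.42 and 0.37.

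Most neighbours of the 7 genes in the genome that reached 1 FPKM lay within 2-fold. The nearest listed protein-coding gene on each side was taken from the order of genes in RefSeq's GRCm38.p6 annotation, which gave 14 neighbours, 9 of them at 1 FPKM or more. Of these, 2 were 2-fold or more higher, no gene was lower by that much and 7 lay within 2-fold. Over all genes the shares were 16.78% higher and 15.49% lower, so counts among 9 genes do not set the neighbours apart. Those within 2-fold include Sbf2 and Tfpi, which lie beside Adm and Calcrl, themselves within 2-fold. On chromosome 11, Ramp2 lies between Ezh1 (7.85 and 8.07 FPKM) and Vps25 (29.4 and 23.6), which differed by 0.036 and -0.30 on the log2 scale, against -3.84 for Ramp2. On chromosome 7, Calca lies between Cyp2r1, a vitamin D hydroxylase gene (0.341 and 5.71 FPKM, difference 2.32), and Calcb at 0. The other higher neighbour was Ampd3, beside Adm, at 1.68 and 10.4 FPKM. On chromosome 1, Ube2f beside Ramp1 was 21.2 and 27.0 and Cops8 beside Ackr3 was 15.7 and 17.5. On chromosome 2, Tfpi beside Calcrl, the tissue factor pathway inhibitor gene, was 67.2 and 127, within 2-fold.

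The directions of 6 of the 7 genes held under each of 7 alternative pseudocounts and scalings, and that of Calcrl did not. Across these settings the difference of Ramp2 ranged from -4.25 to -1.95, that of Ackr3 from -3.13 to -1.01, that of Calca from 5.55 to 9.33, that of Ramp1 from 2.35 to 5.62 and that of Ramp3 from 1.39 to 4.59. These 5 genes were 2-fold or more apart under every setting tried. Calcrl ranged from -0.90 to 1.42 and Adm from 0.33 to 2.54, with both upper ends reached when the pan-endothelial markers were put at a median of 0. That scaling moved the median of all genes to 1.87. Relative to the median of the pan-endothelial markers, therefore, Calcrl and Adm were 2-fold or more higher in the knockout-labelled library. This does not hold against each marker. Fli1 differed by -0.0037, which is above Calcrl and within 2-fold of Adm. Eng, at -0.80, was within 2-fold of Calcrl but not of Adm. Relative to the median gene, Calcrl and Adm lay within 2-fold.

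**Figure D5:**
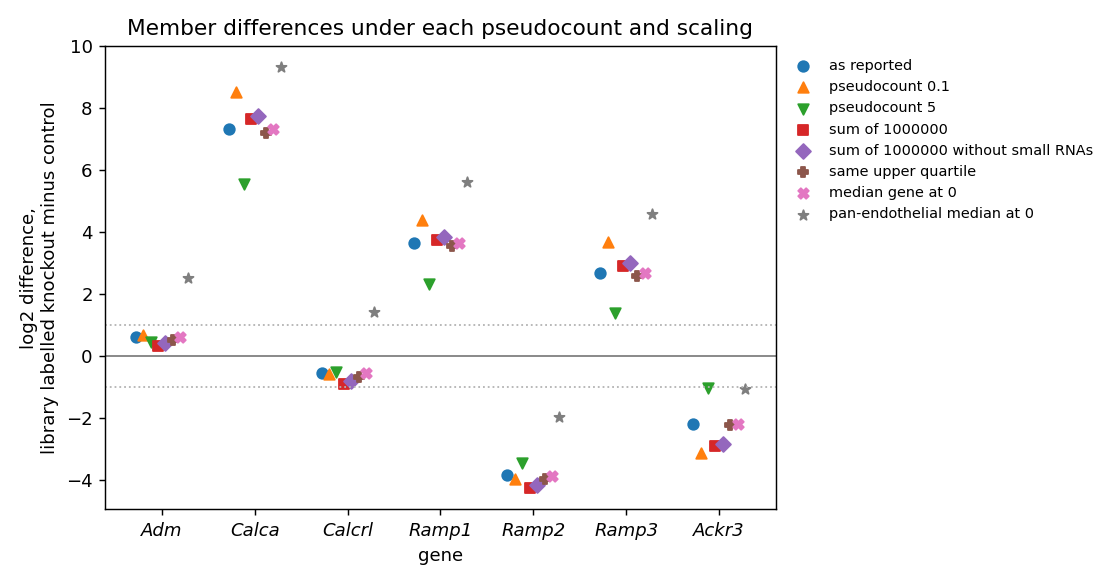
Log2 difference, library labelled knockout minus control, of each gene as reported and under 7 alternative pseudocounts and scalings, with a solid line at 0 and dotted lines at 2-fold. Calca, Ramp1 and Ramp3 stay above 1 and Ramp2 and Ackr3 below -1, while Calcrl crosses 0 with the pan-endothelial median at 0 (from -0.54 to 1.42).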

How the data were processed

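RNA was measured in 1 library per genotype, each from pooled RNA. The tables hold FPKM as deposited by the authors, 1 value per gene symbol. STAR 2.5.2b, Cufflinks 2.2.1, Cuffnorm, R 3.3.2 and build mm9 are named in the submitters' processing notes. The sources used here do not give their roles, the annotation, the use of strand or any scaling between libraries. FPKM sums were 415537 and 530294.

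The members and gene lists were chosen with earlier results of these data known. Genes at 1 FPKM or more in at least 1 library were kept. Differences are log2(FPKM + 1), library labelled knockout minus control, which understates changes of low genes, and folds are ratios of deposited FPKM. Named genes are the members, Dot1l, list members at 10 FPKM or more, markers, the 3 nearest genes of each member, and calcitonin family genes. Other genes named (neighbours, Cxcr3, Mme, Rapgef3, Prkar1b and the convertases below 0.1 FPKM) were chosen after their values were seen. A few genes of the lists are not reported here.

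Depth was estimated from the steps of low values in genes with no more than 1 annotated transcript, of 2500 nt or longer, assuming fragments of 200 nt. Among values of up to 5 fragments, 83.0% of 159 in control and 76.0% of 175 in the knockout-labelled one fell no more than 0.1 from a whole number, which corresponds to about 10200000 and 9110000 fragments, unless the values were scaled again. Most genes could not be turned back into whole fragments, and no count model was used. The depth scan and the counting of folds were tested on simulated data. Exact 0 values can be failed estimates, since the sterol gene Hmgcs1 is listed at 0 in both libraries. Alternatives were pseudocounts, scalings, minimum FPKM and thresholds. Python 3.11.15, NumPy 2.4.6, pandas 2.3.3 and Matplotlib 3.10.9 were used.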

Additional observations from a re-analysis of the deposited data

How the results depend on the processing

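No paired analysis was possible because there is just 1 library in each group, which also leaves no replicate to omit. Of 49 recomputed differences of the 7 genes, 47 kept their direction and their side of 2-fold, and the exceptions arose with the pan-endothelial median at 0: Calcrl turned from -0.54 to 1.42 and Adm passed 2-fold at 2.54, so that 5 of the 7 genes were higher in place of 3. Over all genes, the number higher by 2-fold or more went from 2231 to 10298 with the pan-endothelial median at 0, 1323 with pseudocount 5, 3464 at 1.5-fold and 1298 at 3-fold. The number lower went from 2060 to 290, 921, 3450 and 906 in the same order, and to 3330 when both libraries were brought to a sum of 1000000, where the median of all genes moved to -0.33. With 1 FPKM added to each value, the Ramp2 share was 97.6% in control and 22.3% in the knockout-labelled library, a difference of -75.3 percentage points. The counts of 3 higher and 2 lower genes were the same with no minimum, with a minimum of 5 FPKM and at 3-fold, and Adm joined the higher genes at 1.5-fold. Depth limits the folds of Calca, Ramp3 and Ramp1, with about 5, 7 and 25 fragments in control. The fold of Ackr3 is limited likewise, with about 17 fragments in the knockout-labelled library.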
